A study of Mus musculus with 10 samples.

Results

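Glycolysis and the pentose phosphate pathway were followed in granulocyte-monocyte progenitors (GMPs) through 34 genes, taken by name as glucose transporters, glycolytic enzymes with their isozymes, and pentose phosphate enzymes. These were 34 of the 51717 genes with summed transcripts, and 33 of them were among the 12381 genes that passed the filter on low counts; Eno2 was not. RNA was sequenced from CD45.2+ GMPs sorted from the bone marrow of male C57Bl6/N mixed bone marrow chimeras. The 5 WT samples carried ROSA26 CreER+/-, and the 5 recent KO samples carried Mpc2fl/fl; ROSA26 CreER+/-. Both groups had tamoxifen chow for 2 wk immediately before the cells were taken, so Cre and tamoxifen were common to them. CreER is expressed from the ubiquitous ROSA26 locus, but only the CD45.2+ donor cells carried it. In the paper's mixed chimeras, these were combined with competitor marrow that lacked CreER and given to irradiated recipients. Each WT sample was 1 mouse, whereas each recent KO sample pooled 2 mice.

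Glucose enters the cell through facilitative transporters and is trapped as glucose 6-phosphate by hexokinases. Glycolysis then splits the sugar into triose phosphates and ends at pyruvate, which the mitochondrial pyruvate carrier (MPC1 and MPC2) brings into the mitochondrion. The pentose phosphate pathway leaves glycolysis at glucose 6-phosphate. Its oxidative arm makes NADPH, which phagocytes use to kill microbes, and its non-oxidative arm exchanges pentoses with glycolytic sugars. Deletion of Mpc2 therefore acts just below the last enzyme described here, and the comparison asks whether transcripts of the route to pyruvate differed once that entry was lost.

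Samples held 14033776 to 19745405 estimated reads. Mpc2 transcripts, the check of the deletion, were summed over the whole gene. They stood at 60.9 to 117 normalized CPM (reads scaled to library size with TMM normalization factors) in WT. In recent KO they stood at 17.1 to 43.9 CPM, with no overlap. Only part of the gene is floxed, so reads from its other exons can still count. The recent KO level therefore does not give the share of cells left undeleted. All 10 listed GMP markers were detected. Their summed level, carried mostly by the granule genes Mpo, Elane, Prtn3, and Ctsg, was 64920 to 84985 TPM (transcript abundance scaled for length and depth) in WT and 38416 to 70041 in recent KO. Markers of other cells moved with the groups as well. Summed TPM of 10 erythroid markers ran from 23.5 to 94.3 in WT and reached 490 in recent KO, where replicates 3, 4, and 5 stood above every WT sample. The hemoglobin genes Hba-a1, Hba-a2, Hbb-bs, and Hbb-bt made up most of that sum. Car1 averaged 1.00 TPM in WT and 2.87 TPM in recent KO, Gata1 2.79 and 4.31 TPM, and Alas2 0.259 and 0.271 TPM. None of the 8 tested erythroid markers passed the test. Summed TPM of 8 macrophage markers ran from 10.5 to 25.0 in WT and from 29.3 to 58.9 in recent KO, and 3 of the 8 (the complement genes C1qa, C1qb, and C1qc) passed the test. The list did not move as a whole. Adgre1 averaged 0.775 TPM in WT and 0.727 TPM in recent KO, and Vcam1 2.54 and 3.27 TPM. Summed megakaryocyte and platelet markers did not overlap either, at 10.5 to 19.5 TPM in WT and 25.7 to 43.5 TPM in recent KO. Pf4 made up most of that sum, with 9.40 TPM in WT and 23.2 TPM in recent KO on average. None of the 3 tested genes of that list passed the test. Lymphoid lists were mixed: Ebf1, Pax5, and Cd3e averaged under 0.1 TPM, but Cd79b stood at 47.2 TPM and Nkg7 at 3658 TPM in WT. In bulk RNA, fewer cells of a type and less RNA per cell cannot be told apart, and the part of these markers in the results below was not tested except where a value is given.

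The last enzyme, pyruvate kinase (Pkm), shows which isoform GMPs make. Its gene holds a pair of mutually exclusive exons: the M1 exon, used in muscle and brain, and the M2 exon, used in many proliferating cells. The exons are shown because every isoform value of Pkm rests on telling them apart. Capitals mark the bases that differ, and both are printed 5′ to 3′ from GENCODE M21 transcripts on GRCm38, plus strand.
M1 exon (Pkm-202, exon 9 of 11, chr9:59675029-59675195): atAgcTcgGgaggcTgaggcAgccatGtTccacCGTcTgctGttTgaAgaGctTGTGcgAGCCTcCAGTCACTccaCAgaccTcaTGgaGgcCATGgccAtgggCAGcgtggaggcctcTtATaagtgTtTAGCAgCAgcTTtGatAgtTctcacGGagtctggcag
M2 exon (Pkm-201, exon 9 of 11, chr9:59675568-59675734): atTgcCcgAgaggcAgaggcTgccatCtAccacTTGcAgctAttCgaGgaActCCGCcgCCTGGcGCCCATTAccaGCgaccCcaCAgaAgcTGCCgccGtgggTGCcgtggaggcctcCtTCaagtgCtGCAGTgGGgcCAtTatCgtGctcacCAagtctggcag
Each exon has 167 bases, and 64 of these positions differ (61.7% identical). Of 11 annotated Pkm transcripts, only Pkm-202 carried M1 and only Pkm-201 carried M2; the other 9 had neither exon.

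GMPs used the M2 exon almost alone. In WT samples, Pkm-201 measured 674 ± 25.7 TPM (SD, n = 5), and Pkm-202 measured 30.2 ± 1.93 TPM. M1 therefore made 4.29 ± 0.165% of the TPM that carried either exon, with 4.47%, 4.33%, 4.11%, 4.13%, and 4.42% in the 5 WT samples. Recent KO samples held 3.52%, 4.44%, 5.13%, 5.58%, and 4.77% M1 (4.69 ± 0.779%). The recent KO values lay on both sides of the WT range, and their spread was wider. The difference of 0.400 percentage points did not pass the test (p = 0.294, exact two-sided permutation test). Without recent KO replicate 1, the lowest sample, the difference was 0.692 percentage points with an unadjusted p = 0.0317 in the same exact permutation test. A larger difference follows from leaving out the lowest sample. Over all runs that left out 1 sample, the exact permutation p ran from 0.0317 to 0.587. None of the 11 single Pkm transcripts passed the test on its share of Pkm TPM (adjusted p of 1 in each exact permutation test, adjusted over the 11). Genes for the splicing factors known to favor M2 were abundant and did not pass the test, with Ptbp1 at 182 ± 8.40 CPM in WT and 185 ± 17.0 in recent KO, and Hnrnpa1 at 688 ± 17.1 and 753 ± 60.8 (edgeR adjusted p = 0.936 and 0.529).

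Levels of the 34 genes are given in TPM, the scale used here for every comparison between genes. Together they held 1.14 ± 0.0384% of all TPM in WT and 1.14 ± 0.131% in recent KO. Gapdh, which oxidizes glyceraldehyde 3-phosphate, was the highest, at 5522 ± 356 TPM, and only 17 of the tested genes were higher. The next were Eno1 (enolase) at 1023 ± 107 TPM and Aldoa (aldolase) at 912 ± 41.7 TPM. Eno1 was above Aldoa in all 5 WT samples, although their ranges overlapped. Pkm (720 ± 28.4 TPM) and Pgam1, the phosphoglycerate mutase (684 ± 31.5 TPM), overlapped as well, with Pkm higher in 4 of 5 samples.

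Pentose phosphate enzymes stood close behind. Taldo1 (transaldolase) measured 573 ± 45.9 TPM, above Gpi1, the glucose 6-phosphate isomerase (477 ± 18.5 TPM), in all 5 WT samples and without overlap. Gpi1 and Pgls, the lactonase of the oxidative arm (460 ± 51.0 TPM), could not be placed in order. Tkt (transketolase) at 290 ± 19.1 TPM exceeded Pgk1 (phosphoglycerate kinase) at 237 ± 10.6 TPM, again without overlap. The dehydrogenases that make NADPH were lower, with Pgd at 89.7 ± 5.59 TPM and G6pdx, the entry enzyme, at 61.8 ± 4.28 TPM. The enzymes that interconvert pentose phosphates were lower still, with Rpe at 23.3 ± 2.62 TPM and Rpia at 3.95 ± 0.606 TPM. In the plot of levels by step, the transporters and the enzymes of fructose 2,6-bisphosphate control lie near the bottom. Aldoc and Pfkm of upper glycolysis, Bpgm and Eno3 of lower glycolysis, and Rpia lie there as well, with Gapdh, Eno1, and Aldoa at the top.

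**Figure D1:**
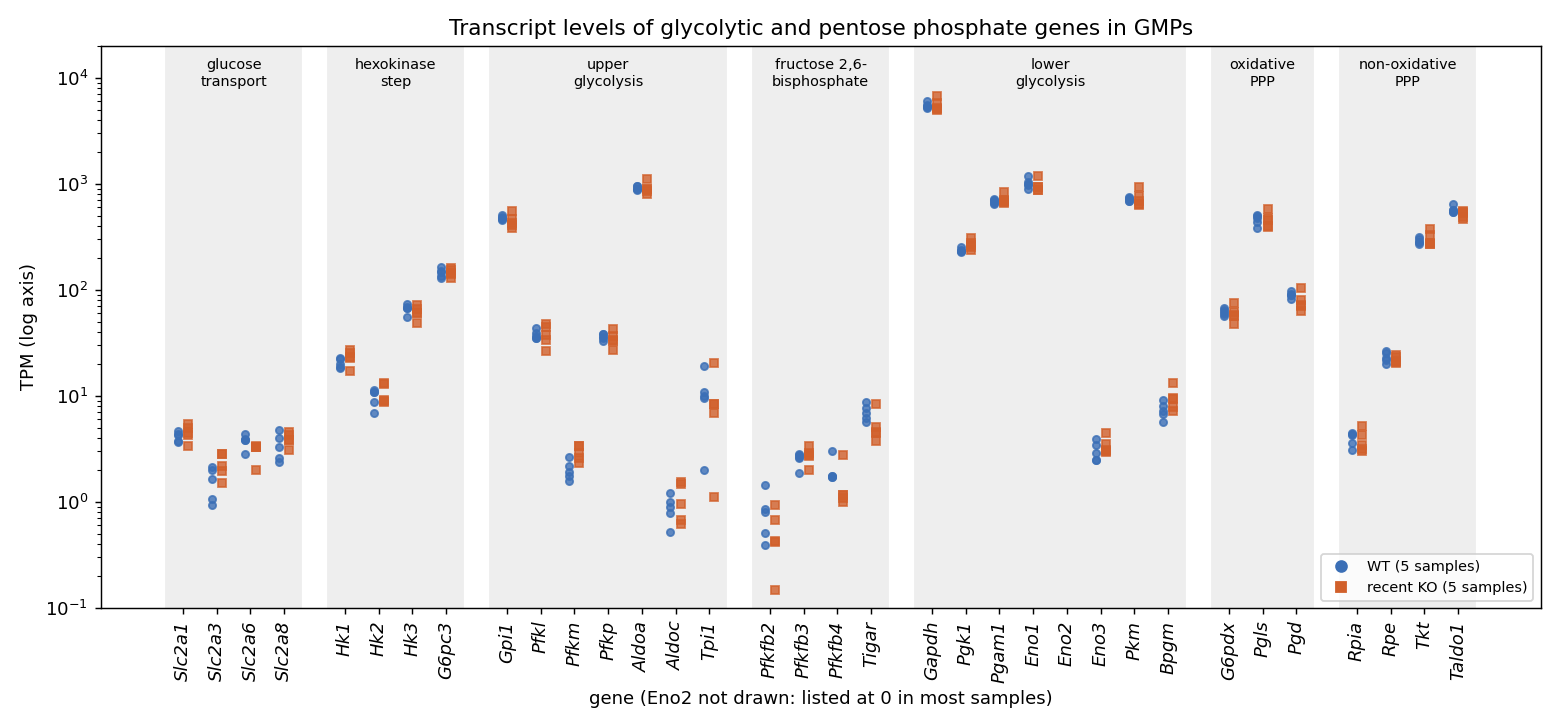
TPM of each gene on a log axis, grouped by step, with 1 circle per WT sample and 1 square per recent KO sample; Eno2 is not drawn. Gapdh lies between 4959 and 6673 TPM in every sample, and the circles and squares of a gene lie side by side across the whole range of levels; PPP, pentose phosphate pathway.

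The Tpi1 value is no measure of that gene's level. Tpi1 (triose phosphate isomerase, chr6:124810586-124814296) summed to only 10.3 ± 6.04 TPM in WT, and its samples ranged from 1.10 to 20.4 TPM. The files also hold the transcript ENSMUST00000239432 (1601 bases, 615 ± 32.5 TPM in WT and 607 ± 57.7 in recent KO), which is absent from M21 and stands between Tpi1 transcripts in the order of the files. It had the most reads of all transcripts left unmatched and was assigned to no gene.

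Among isozymes, GMPs preferred a single gene at some steps and not at others. Hk3, the hexokinase typical of myeloid cells, held 68.6 ± 2.68% of hexokinase TPM in WT. Its TPM was 74.0, 66.8, 66.8, 55.9, and 69.0 in the 5 WT samples, ahead of Hk1 (20.5 ± 1.90 TPM) and Hk2 (9.79 ± 1.97 TPM) in every one. Hk1 was ahead of Hk2 in all 5 as well, by 2.09-fold on the means. G6pc3, the ubiquitous glucose 6-phosphatase that runs opposite to hexokinase, was higher than each hexokinase, at 145 ± 13.4 TPM. Loss of G6pc3 is known to cause neutropenia.

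Phosphofructokinase, which commits the sugar to glycolysis, was split evenly between a pair of isozymes. Pfkl measured 39.6, 34.8, 37.0, 44.0, and 35.0 TPM in WT samples and Pfkp 33.0, 35.2, 35.7, 38.0, and 38.0 TPM. Pfkl was higher in 3 of 5 WT samples only, so neither was ahead. Pfkm, the muscle isozyme, was at 2.01 ± 0.421 TPM, which was 2.66 ± 0.622% of the family.

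Aldolase and enolase showed the strongest preference. Aldoa took 99.9 ± 0.0286% of aldolase TPM (895, 952, 885, 961, and 868 TPM in WT samples), against 0.881 ± 0.258 TPM for the brain isozyme Aldoc. A second gene annotated with the symbol Aldoa stayed between 0.0961 and 0.760 TPM and was not tested. Eno1 took 99.7 ± 0.0685% of enolase TPM (1002, 981, 1044, 1190, and 898 TPM), and the muscle isozyme Eno3 stood at 3.03 ± 0.612 TPM. The neuronal isozyme Eno2 was listed at 0 in 4 of 5 WT samples and 3 of 5 recent KO samples, with at most 0.288 TPM.

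No glucose transporter dominated. Slc2a1 (GLUT1) measured 4.34, 3.68, 3.79, 4.24, and 4.62 TPM in WT samples and was above Slc2a6 (3.76 ± 0.553 TPM) in 4 of 5. Slc2a8 (3.41 ± 0.988 TPM) was likewise below Slc2a6 in 4 of 5, so these 3 were not separated. Slc2a3 (GLUT3) was the lowest, at 1.55 ± 0.534 TPM. Of 10 further glucose transporter genes, only Slc2a9 passed the filter on low counts.

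The enzymes that set fructose 2,6-bisphosphate, an activator of phosphofructokinase, were all scarce. Pfkfb3 measured 1.87, 2.59, 2.75, 2.82, and 2.67 TPM in WT samples and was above Pfkfb4 (2.00 ± 0.587 TPM) in 4 of 5. Pfkfb2 was at 0.799 ± 0.407 TPM. Tigar, a phosphatase that lowers fructose 2,6-bisphosphate, was at 7.03 ± 1.24 TPM. Bpgm, which makes the 2,3-bisphosphoglycerate of red cells, was at 7.34 ± 1.28 TPM.

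**Figure D2:**
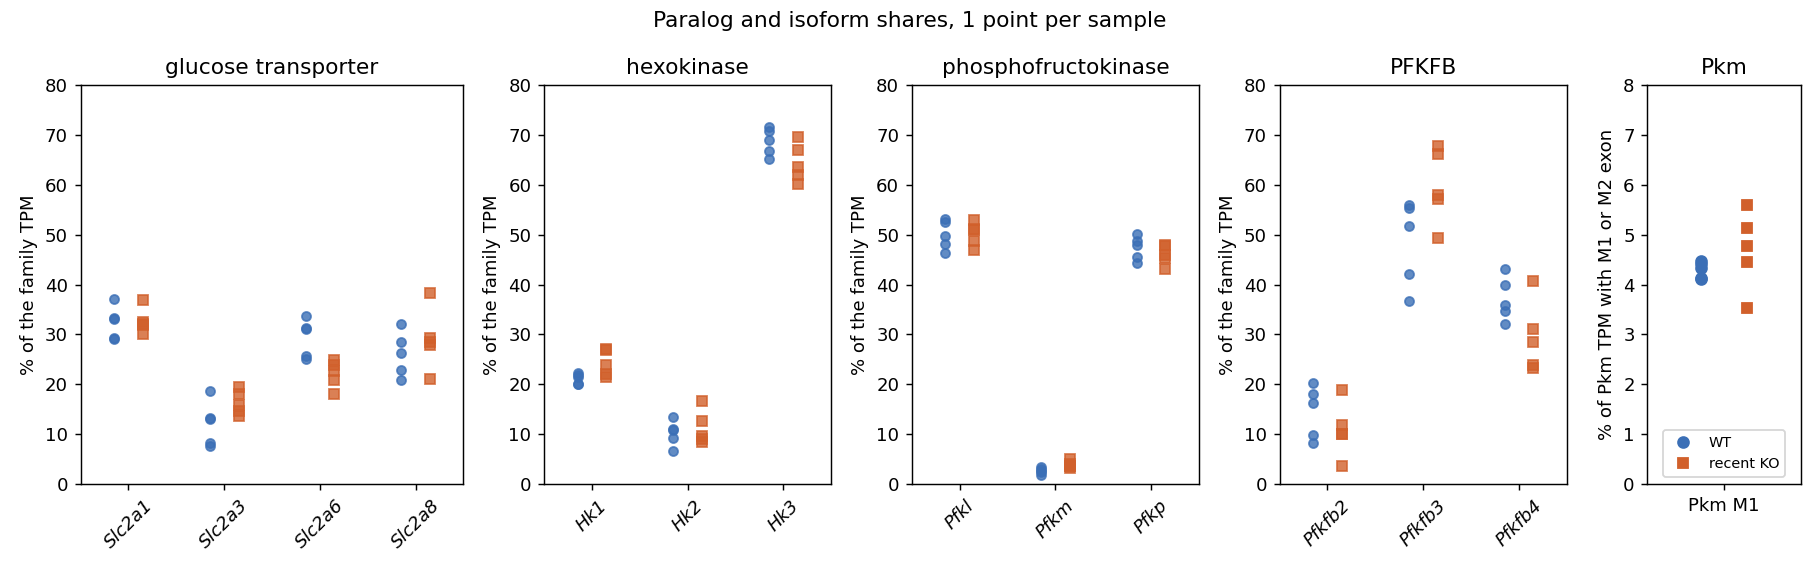
Share of each gene in the summed TPM of its family, and the share of M1 in Pkm TPM that carried the M1 or M2 exon, in percent. The PFKFB family is taken without Pfkfb1. Circles are WT samples and squares are recent KO samples. Hk3 holds over 60% of hexokinase TPM in every sample, Pfkl and Pfkp lie together near 50%, and the recent KO squares of Slc2a6 lie below its WT circles, which does not hold for its share of reads.

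Isozyme shares were then compared between groups, for 17 shares. None passed an adjusted p of 0.05. The share of Slc2a6 among the 4 transporters was 29.3 ± 3.81% in WT and 22.1 ± 2.70% in recent KO, and the groups did not overlap in TPM. As a share of reads they overlapped (at least 20.1% in WT and at most 20.2% in recent KO; exact permutation p = 0.0238, adjusted p = 0.162). In TPM, the exact permutation p of 0.00794 is the smallest that 5 samples against 5 allow, and the adjusted p was 0.135. Pfkm held 2.66 ± 0.622% of phosphofructokinase TPM in WT and 3.91 ± 0.724% in recent KO, and the groups overlapped (exact permutation p = 0.0159, adjusted p = 0.135). Hk3 had 64.4 ± 3.81% of hexokinase TPM in recent KO (exact permutation p = 0.0873, adjusted p = 0.247). Hk3 remained ahead of Hk1 and Hk1 ahead of Hk2 in all 5 recent KO samples.

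In the comparison of recent KO with WT, none of the 33 tested genes passed an adjusted p of 0.05 in edgeR's quasi-likelihood test. Over all genes tested, 0.331% passed (41 of 12381; 0.121% were higher and 0.21% lower in recent KO), so a count of 0 among 33 is near the background. At an unadjusted p under 0.05 there were 6 of 33 (18.2%), 1 higher and 5 lower, beside 10.2% of all genes tested (4.89% higher and 5.35% lower). DESeq2 also called none of the 33. No gene of the 33 had groups without overlap in normalized CPM, which 2.43% of all genes tested did. The median log2 fold change of the 33 was -0.05, beside -0.00 over all genes tested, and 12 were higher and 21 lower in recent KO.

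The intervals limit how large a difference could have been missed. For 28 of the 33 genes, the 95% interval of the fold change lay within 1.5-fold in either direction. Pfkm, Aldoc, Tpi1, Pfkfb2, and Pfkfb4 were the exceptions. Gapdh had a log2 fold change of -0.07 (95% interval -0.31 to 0.18), Pkm of -0.05 (-0.25 to 0.16), and G6pdx of -0.07 (-0.25 to 0.11).

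**Figure D3:**
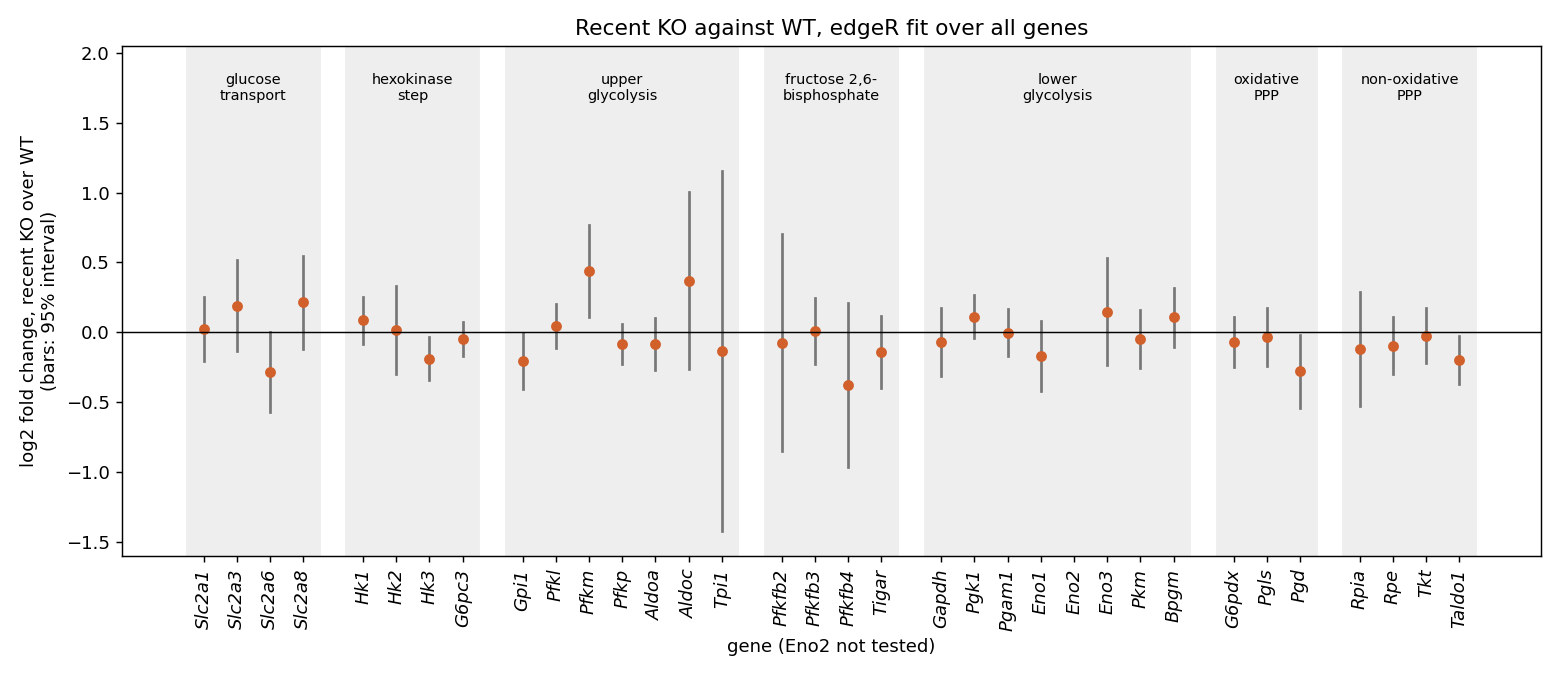
Log2 fold change (recent KO relative to WT) of the 33 tested genes, from the edgeR fit over all genes, with 95% intervals as bars. Most intervals cross 0; those of Pfkm (above 0) and of Slc2a6, Hk3, Gpi1, Pgd, and Taldo1 (below 0) do not, and none of these genes passed the adjusted threshold.

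Pfkm was the only gene higher in recent KO at an unadjusted p under 0.05. It measured 5.97, 7.38, 6.35, 5.75, and 8.62 CPM in WT samples and 10.1, 10.5, 10.6, 8.16, and 7.01 CPM in recent KO samples. Recent KO replicates 1 to 3 were above every WT sample, and replicates 4 and 5 were inside the WT range. The log2 fold change was 0.44 (SE 0.15, adjusted p = 0.325; exact permutation p = 0.0397). Pfkm shares 18 exon bases with Senp1 on the opposite strand, and the library kit does not mark strand, so their reads there cannot be told apart.

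Among transporters and hexokinases, Slc2a6 and Hk3 were lower. Slc2a6, a transporter of lysosomal membranes, measured 8.57, 8.26, 7.30, 9.95, and 8.92 CPM in WT, against 5.13, 7.34, 7.62, 7.43, and 7.58 CPM in recent KO. Only recent KO replicate 1 fell below all WT samples (log2 fold change -0.29, SE 0.13, adjusted p = 0.486; exact permutation p = 0.0397). Hk3 measured 245, 237, 260, 209, and 226 CPM in WT, against 185, 199, 205, 218, and 226 CPM in recent KO. For Hk3, 3 recent KO samples lay below the WT range and 2 inside it (log2 fold change -0.19, SE 0.07, adjusted p = 0.374; exact permutation p = 0.0317).

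Taldo1, which joins the pentose phosphate pathway to glycolysis, measured 723, 659, 744, 706, and 646 CPM in WT, against 697, 538, 537, 637, and 623 CPM in recent KO. Recent KO replicates 2 to 5 were below every WT sample, and replicate 1 was inside the WT range. The log2 fold change was -0.20 (SE 0.08, adjusted p = 0.418; exact permutation p = 0.0397).

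Gpi1 and Pgd divided the recent KO group. Gpi1, the branch point with the pentose phosphate pathway, measured 1093, 1221, 1231, 1284, and 1108 CPM in WT, against 1126, 1226, 891, 945, and 963 CPM in recent KO. Pgd, the second NADPH-producing enzyme of the oxidative arm, measured 192, 226, 244, 264, and 214 CPM in WT, against 210, 242, 149, 169, and 168 CPM in recent KO. For both genes, recent KO replicates 3, 4, and 5 were below every WT sample, and replicates 1 and 2 were inside the WT range. The log2 fold changes were -0.21 (SE 0.09, adjusted p = 0.463) for Gpi1 and -0.28 (SE 0.12, adjusted p = 0.452) for Pgd, and each had an exact permutation p of 0.0873.

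Aldoa and Tkt had the same 3 recent KO samples at the bottom. Tkt measured 601, 597, 645, 616, and 627 CPM in WT, against 690, 734, 539, 540, and 534 CPM in recent KO. Its recent KO samples thus lay on both sides of a narrow WT range, and the means did not separate (617 ± 19.6 and 607 ± 96.5 CPM; adjusted p = 0.959). Aldoa measured 1303, 1476, 1492, 1611, and 1307 CPM in WT, against 1354, 1585, 1291, 1301, and 1255 CPM in recent KO. In normalized CPM, the pattern of replicates 3, 4, and 5 below all WT samples with 1 and 2 not below held for 4 of the 33 genes (12.1%) and 2.71% of all genes tested. It was noticed after the values were seen and is a description only. In TPM, only Gpi1 of these genes kept it. Tkt was at 271, 275, and 273 TPM in replicates 3, 4, and 5, against at least 268 TPM in WT. Aldoa was at 889, 888, and 857 TPM there, against at least 868 TPM in WT. For Pgd, recent KO replicate 1 was below WT as well (79.4 TPM, against at least 81.5 TPM). G6pdx divided the group otherwise, at 152, 154, 162, 176, and 156 CPM in WT, against 145, 190, 136, 144, and 148 CPM in recent KO. Its recent KO replicate 2 was above every WT sample and the other 4 below (adjusted p = 0.847).

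These 3 recent KO samples were also those with summed erythroid markers, mostly hemoglobin genes, above every WT sample (490, 330, and 289 TPM). Their summed GMP markers, mostly granule genes, were below every WT sample (38416, 50903, and 52918 TPM). The GMP list did not move as a whole, since Cd34 averaged 81.0 TPM in WT and 101 TPM in recent KO, and Kit 6.60 and 7.80 TPM; none of the 10 passed the test. Summed basophil and mast cell markers were also above every WT sample in these 3 (417, 392, and 363 TPM, against at most 309 TPM in WT). That sum was mostly Mcpt8, which averaged 189 TPM in WT and 278 TPM in recent KO. Cpa3, Gata2, and Fcer1a averaged higher in recent KO too, but Prss34 (4.15 and 1.77 TPM) and Ms4a2 (2.06 and 2.03 TPM) averaged lower. None of these 6 markers passed the test. Recent KO replicates 1 and 2 had erythroid markers inside the WT range and GMP markers of 58307 and 70041 TPM, so replicate 1 was below WT in the latter as well. Their summed markers of maturing neutrophils, 1667 and 2633 TPM, were above the WT maximum of 1531 TPM, as were those of replicate 5 (1634 TPM). That list did not move as a whole. S100a8 averaged 760 TPM in WT and 744 TPM in recent KO, and Cxcr2 2.72 and 2.34 TPM. The others, such as S100a9 (209 and 445 TPM), averaged higher in recent KO. None of these 10 neutrophil markers passed the test. The part of these markers was not tested. Without replicates 3, 4, and 5, a setting chosen after seeing the data, none of the 33 genes passed the threshold. The log2 fold changes of Gpi1 and Pgd were then both -0.02, which follows from leaving out their lowest samples.

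**Figure D4:**
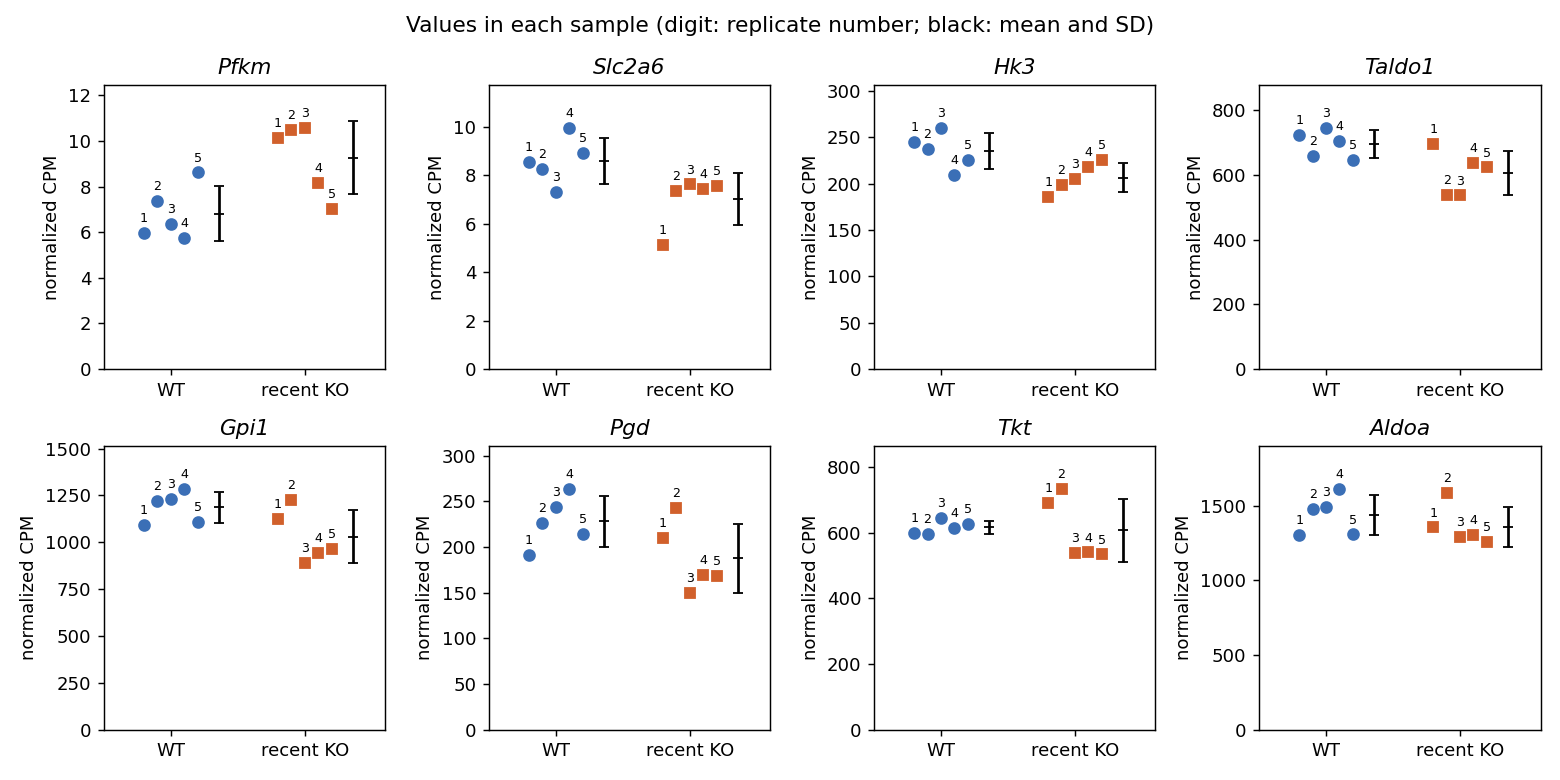
Normalized CPM in each sample for the 6 genes with an unadjusted p under 0.05 and for Tkt and Aldoa, with the replicate number beside each point and the mean and SD in black. Recent KO replicates 3, 4, and 5 lie below all WT samples for Gpi1, Pgd, Tkt, and Aldoa, while replicates 1 and 2 do not.

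The recent KO samples varied more than the WT samples. The SD of normalized CPM was larger in recent KO for 25 of 33 genes (75.8%), beside 56.4% of all genes tested. Single samples carried many of the extremes. WT replicate 4 was the highest WT sample for 16 of 33 genes (48.5%; 23.5% of all genes), including Gapdh, Eno1, Aldoa, and Pkm. Recent KO replicate 2 was the highest recent KO sample for 14 of 33 (42.4%; 26.7% of all genes). Gapdh itself reached 9004 CPM in WT replicate 4 against 6516 to 8161 CPM in the other WT samples.

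By step, the unadjusted p was under 0.05 for 1 of 4 glucose transporters, 1 of 4 genes of the hexokinase step, 2 of 7 of upper glycolysis, and none of 4 of fructose 2,6-bisphosphate control, beside 10.2% of all genes tested; with so few genes a step, nothing is read from these counts. None of the 7 tested genes of lower glycolysis passed it; their log2 fold changes ran from -0.17 (Eno1) to 0.15 (Eno3). Pgk1 was at 477 ± 19.1 CPM in WT, against 516 ± 50.4 CPM in recent KO, with 3 recent KO samples above all WT samples (adjusted p = 0.637). All 3 genes of the oxidative arm and all 4 of the non-oxidative arm had lower fitted values in recent KO, as did 6246 of all 12381 genes tested, with median log2 fold changes of -0.07 and -0.11; Pgd and Taldo1 were the only 2 of these 7 with an unadjusted p under 0.05.

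The remaining genes had small or imprecise differences. Slc2a8 and Slc2a3 had log2 fold changes of 0.21 (SE 0.15) and 0.19 (SE 0.15), and Slc2a1 of 0.02 (SE 0.11). Hk1 was at 0.08 (SE 0.08), Hk2 at 0.02 (SE 0.15), and G6pc3 at -0.05 (SE 0.06). Both main phosphofructokinases were close to WT, with Pfkl at 0.05 (SE 0.07) and Pfkp at -0.09 (SE 0.07). Pfkfb4 was at -0.38 (SE 0.27), and Aldoc at 0.37 (SE 0.29), both with wide errors and low levels. Pfkfb3 was at 0.01 (SE 0.11), Tigar at -0.14 (SE 0.12), and Bpgm at 0.11 (SE 0.10). In the pentose phosphate pathway, Pgls was at -0.03 (SE 0.10), Rpia at -0.12 (SE 0.19), and Rpe at -0.10 (SE 0.10). Exons of Rpe and Kansl1l, of G6pdx and Ikbkg, of Pfkp and Pitrm1, and of Pfkfb2 and Yod1 overlap on opposite strands, so some of their reads cannot be told apart.

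Several of these enzymes have near-identical copies in the genome, most of them processed pseudogenes, so Salmon must divide reads between them. BLAST matched copies to 11 of the 34 genes, with 175 copies for Gapdh alone. Adding the reads of all copies to their gene moved no log2 fold change past the threshold; for Gapdh it went from -0.07 to -0.08. For Pgam1 the estimated division differed between groups. Pgam1-ps2 (chr7:27469771-27470535, minus strand), named after its values were seen, matches the 762 coding bases of Pgam1 at 100% identity. Reads that lie within these bases cannot be told apart by sequence, and any sequence difference of these mice from the reference there was not examined, so the values are Salmon's division and not a measured level of the pseudogene. It was given 40.1, 36.4, 37.3, 57.3, and 14.2 CPM in WT samples and 0, 5.38, 0, 0, and 0 CPM in recent KO samples.

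The groups of Pgam1-ps2 did not overlap, and it was among the 41 calls (adjusted p = 0.0114). Its means were 37.1 ± 15.3 CPM in WT, against 1.08 ± 2.41 CPM in recent KO; the fitted log2 fold change of -5.27 (SE 0.83) depends on the count added to zeros. DESeq2 did not call it (adjusted p = 0.297). Pgam1 itself did not pass the test, at 1332 ± 95.6 and 1329 ± 112 CPM (log2 fold change -0.00, 95% interval -0.17 to 0.16, adjusted p = 0.994). The copy took 1.05% to 3.83% of the summed reads of the pair in WT samples and at most 0.360% in recent KO samples. With copies added, Pgam1 had a log2 fold change of -0.04 (SE 0.08, adjusted p = 0.906). A Gapdh copy, Gm12671, likewise chosen after its values were seen, held 0, 0, 59.7, 135, and 25.4 CPM in WT samples and 0 in every recent KO sample, and was not tested.

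**Figure D5:**
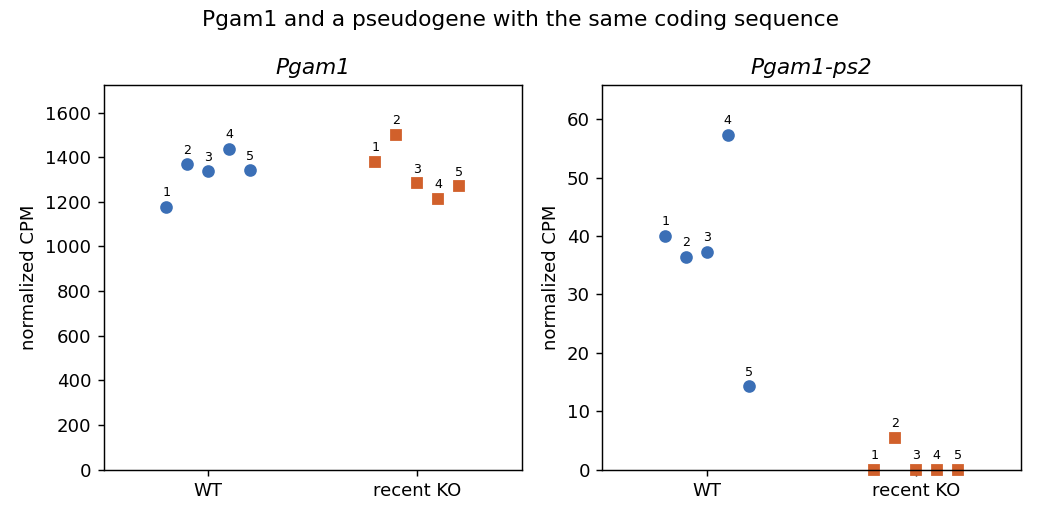
Normalized CPM of Pgam1 and of the pseudogene Pgam1-ps2 in each sample, with the replicate number beside each point. Pgam1 overlaps between groups, whereas Pgam1-ps2 is at 14.2 to 57.3 CPM in WT and at 0 in 4 of 5 recent KO samples.

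Other genes of sugar metabolism were read from the same fit. Of 97 listed, 71 were tested, and Mpc2 itself was the only one to pass (log2 fold change -1.46, SE 0.24, adjusted p = 0.0156); its call was lost without recent KO replicate 1 (adjusted p = 0.05002). The other 70 had a median log2 fold change of -0.02, beside -0.00 over all genes tested. Of these 70, 5 were higher and 2 lower at an unadjusted p under 0.05, a share near the 10.2% of all genes tested. The values of these 7 are therefore given as a description.

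Fbp1, fructose 1,6-bisphosphatase, which opposes phosphofructokinase, measured 36.1, 34.8, 39.7, 22.8, and 36.6 CPM in WT, against 44.6, 62.1, 49.3, 41.3, and 39.0 CPM in recent KO. Recent KO samples were above all WT samples in 4 of 5 cases (log2 fold change 0.47, SE 0.15, adjusted p = 0.260), and without a filter on low counts the gene passed (adjusted p = 0.0318). Pdha1, a subunit of pyruvate dehydrogenase, had a WT range of 93.3 to 101 CPM and a recent KO range of 103 to 127 CPM, which did not overlap, and did not pass the threshold (log2 fold change 0.18, adjusted p = 0.330). Prps1 (log2 fold change 0.16), Galk1 (0.22), and Myc (0.20) were the others on the higher side, with adjusted p of 0.356, 0.364, and 0.328 in edgeR.

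On the lower side were Phkb, a subunit of glycogen phosphorylase kinase, and Adpgk, an ADP-dependent glucokinase. Phkb measured 23.6, 27.6, 28.3, 28.8, and 28.7 CPM in WT, against 21.4, 23.8, 19.5, 20.3, and 21.9 CPM in recent KO. Its log2 fold change was -0.36 (SE 0.08, adjusted p = 0.102), and it passed without recent KO replicate 2 (adjusted p = 0.0474) and in DESeq2 (adjusted p = 0.0237). Adpgk had a log2 fold change of -0.23 (adjusted p = 0.474). Ldha, which turns pyruvate into lactate, ran from 2426 to 3109 CPM in WT and from 2632 to 3630 CPM in recent KO and did not pass (adjusted p = 0.531).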

How the data were processed

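RNA-seq of CD45.2+ GMPs from 5 WT and 5 recent KO samples was analysed, with groups and replicate numbers taken from the labels. The authors mapped paired-end 150 bp reads from SMARTseq V4 libraries to Gencode's M27 annotation with Salmon (1.5.1 in the submitters' notes). The authors deposited unnormalized estimated counts for each transcript, together with TPM scaled to transcript length. Their DESeq2 results table, with fold changes and p-values, was not used.

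Transcripts were matched by identifier without version to GENCODE M21 on GRCm38, an older build. Of 140789 transcripts, 137161 (97.4%) matched, and the other 3628 (0.348% to 0.390% of reads) were left out. Estimated counts were summed per gene and rounded. Positions are from M21 only. The symbol Rpel1 had no match.

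The 12381 genes kept by filterByExpr (minimum count 10) were tested with edgeR 4.0.16 (quasi-likelihood, TMM, condition as the only term, Benjamini-Hochberg adjustment over all genes at 0.05). Normalized CPM uses the same scaling. Exact two-sided permutation tests served for shares and single values, which cannot give a p below 0.00794 here. Copies were found with BLAST 2.17.0 (90% identity over 200 bases or more), and all transcripts of the 34 genes count toward their sums. The fit was tested on simulated counts.

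Alternatives were other normalizations and filters, a transcript length offset, DESeq2 1.42.0, limma 3.58.1 on log2(TPM + 1) or log2(TPM + 0.1), the replicate number as a block, each sample left out, and copies added. Replicates differed by more than sampling noise (chi-square per gene of 6.71 to 46.5).

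The genes and lists were chosen with earlier results of these data known. All 34 genes are named; values in every sample are given for those with an unadjusted p under 0.05 and for the highest of each isozyme family. Other genes of the pathway are named by the same p, and copies if they held over 5% of the reads of a pair; genes named outside this rule are marked or are splicing and lactate genes given as background.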

Additional observations from a re-analysis of the deposited data

Results flagged for a closer look

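Among 102 groups of 5 values checked (CPM of each tested gene and isozyme or isoform shares), 8 had a sample far from the other 4 by Dixon's test; chance flags about 1 in 20 groups, or 5.10 of 102. Slc2a6 was at 5.13 CPM in recent KO replicate 1, whereas the rest of that group had 7.34 to 7.62 CPM. Eno3 was at 7.24 CPM in the same sample, against 4.28 to 4.90 CPM, and Eno3 held 0.476% of enolase TPM there, against 0.297% to 0.343%, with Eno1 at 99.5% against 99.7% at most. G6pdx was at 190 CPM in recent KO replicate 2, against 136 to 148 CPM. Pfkfb4 was at 6.05 CPM in WT replicate 2, against 2.87 to 3.65 CPM. Eno2 held 0.0182% of enolase TPM in WT replicate 3, against 0 in the other WT samples, and 0.0244% in recent KO replicate 2, against at most 0.00515% in the other recent KO samples.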

How the results depend on the processing

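None of the tested genes of glycolysis and the pentose phosphate pathway passed the threshold in any of 22 alternative fits, where the lowest adjusted p was 0.124 (Pgd, without recent KO replicate 2). Of the 33, 13 kept the direction of their log2 fold change in every alternative run. A count of 3, the floor, was 0.153 to 0.215 CPM over the samples, which limits what can be seen of the lowest genes. Calls over all genes were 206 without a filter on low counts, 156 with DESeq2, 26 with limma on log2(TPM + 0.1), 20 with the replicate number as a block, and 25 to 91 when 1 sample was left out, with 91 without recent KO replicate 2, 25 without recent KO replicate 3 or 4, and 26 without WT replicate 3. Comparing recent KO replicates 1 and 2 alone with WT, chosen after seeing the data, gave 16. Samples of the same number did not deviate together (correlations of -0.177 to 0.0576, none best with its own number). The numbers thus gave no sign of pairing, although a check on so few samples cannot exclude a shared batch. With the replicate block none of the 33 genes passed either, and the edgeR adjusted p of Mpc2 was 0.0577.

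Some log2 fold changes changed sign, none of them called, and the cause was not tested. With library size only, which moved the median of all genes to 0.07, G6pc3 was at 0.0245, Pfkfb2 0.0013, Gapdh 0.0092, Pgam1 0.0697, Pkm 0.0262, G6pdx 0.0037, Pgls 0.0346, and Tkt 0.0452. With limma on log2(TPM + 1), G6pc3 was at 0.0127, Pfkl -0.0216, Pgam1 0.0592, Pkm 0.0137, and Tkt 0.0580; with log2(TPM + 0.1), they were at 0.0127, -0.0227, 0.0593, 0.0137, and 0.0581. With the length offset, Pfkl was at -0.0738 and Tkt 0.0099, and with upper quartile normalization Pgam1 was at 0.0113. With recent KO replicates 1 and 2 alone, Slc2a1 was at -0.110, Hk2 -0.203, Pfkl -0.0118, Aldoa 0.0222, Aldoc -0.324, Pfkfb3 -0.101, Pfkfb4 0.0164, Tigar 0.0510, Gapdh 0.0446, Pgam1 0.102, Eno1 0.0011, Pkm 0.0751, G6pdx 0.0562, Pgls 0.173, Rpia 0.0304, and Tkt 0.197.

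Leaving out 1 sample gave -0.0534 to 0.0959 for Slc2a1, -0.0737 to 0.130 for Hk2, -0.700 to 0.245 for Tpi1, -0.271 to 0.161 for Pfkfb2, -0.0734 to 0.0698 for Pfkfb3, -0.0507 to 0.0271 for Pgam1, -0.0131 to 0.227 for Eno3, -0.138 to 0.0012 for Pkm, -0.0936 to 0.0217 for Pgls, and -0.100 to 0.0202 for Tkt. The M1 share difference ran from 0.176 to 0.692 percentage points. Share differences ran from -0.778 to 1.47 points for Slc2a1 (-0.490 as a share of reads), -0.269 to 1.86 for Hk2, -0.767 to 0.944 for Pfkl, and -0.00235 to 0.00590 for Eno2, and no share passed an adjusted p of 0.05. Mpc2 passed in 15 of 21 alternatives; its adjusted p was 0.0730 with the length offset, 0.167 (pseudocount 1) and 0.214 (pseudocount 0.1) with limma, and 0.0514 with recent KO replicates 1 and 2 alone. Pgam1-ps2 passed in 19 of 21 alternatives.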
